A study of Mus musculus with 6 samples.

Results

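The semaphorin, ephrin, Slit and netrin families, with their receptors, were followed in mouse embryonic fibroblasts (MEFs, primary connective tissue cells grown out of embryos) as the cells were serially passaged. Members were all genes in the deposited table whose symbol names a semaphorin, plexin, neuropilin, ephrin, Eph receptor, Slit, Robo, netrin or Unc5 receptor, which gave 67 of the 21988 genes. They were 20 semaphorins, 9 plexins, 2 neuropilins, 5 A-type and 3 B-type ephrins, 9 EphA and 5 EphB receptors, 3 Slits, 4 Robos, 3 netrins and 4 Unc5 receptors, that is 34 ligands and 33 receptors. Genes with similar names that encode other proteins, such as the Slitrk genes, the netrin-G genes and Unc50, were not members.

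The cells came from C57BL/6 embryos at 13.5 days of gestation and carried no labelled genetic change or treatment. They were harvested at population doubling (PD) 2, 8 and 14, and PD counts, from the primary culture on, how often the cell number had doubled. All 3 PD levels had 2 libraries: replicate 1 was made from RNA depleted of ribosomal RNA with a strand-specific kit, and replicate 2 from RNA enriched for poly(A) tails. The libraries of a level therefore differ in method, and no label says that they came from separate cultures. Method was a term of the fit. The p-values therefore measure a change only against how far the 2 methods differed in their changes between levels, in these 6 libraries. How many embryos were pooled is not given in the sources used here.

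Levels are in TPM, a length-corrected share of a library's transcripts, so that levels of different genes can be compared. The 3 rRNA-depleted libraries summed to between 937217 and 950531 TPM over the table and the 3 poly(A) libraries to 1000000 each, and 12554 to 12827 genes reached 1 TPM in a library. Read counts were not used here and the depth is unknown. Fibroblast markers were abundant: the 12 markers summed to between 18120 and 36278 TPM in every library. Endothelial Tie1, Cldn5 and Sox17, T cell Cd3e and epithelial Esrp1 were listed at 0 in all 6 libraries. On the marker lists, 3 of 14 endothelial, 2 of 15 macrophage and leukocyte and 1 of 10 epithelial genes were at 0 throughout. Others were expressed: single poly(A) libraries reached 94.6 TPM for endothelial Flt1, 28.5 TPM for epithelial Krt19 and 621 TPM for leukocyte Lyz2.

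Guidance molecules were named for steering growing axons, and they also direct migration, adhesion and spacing of fibroblasts, vascular and neural crest cells. Secreted class 3 semaphorins bind neuropilins, which signal through plexins, and most other semaphorins are membrane-bound and bind plexins directly. Ephrins are held at the cell surface, by a lipid anchor (A type) or a membrane-spanning segment (B type), and signal on contact with Eph receptor tyrosine kinases. Slits are secreted and act through Robo receptors, and netrins are laminin-like proteins that attract through Dcc and neogenin and repel through Unc5 receptors.

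In the ephrin system, 2 ephrins and 2 Eph receptors were among the members that rose during passaging. Their RefSeq promoters on GRCm38.p6, from 250 bases before to 50 bases after the start, are shown because these 4 genes rose. For each gene the RefSeq start nearest to the GENCODE gene start was taken. Capitals mark every match, on either strand, to the 5 motifs whose letters are given after the sequences.
Efna3 promoter, chr3:89322890-89323189, minus strand: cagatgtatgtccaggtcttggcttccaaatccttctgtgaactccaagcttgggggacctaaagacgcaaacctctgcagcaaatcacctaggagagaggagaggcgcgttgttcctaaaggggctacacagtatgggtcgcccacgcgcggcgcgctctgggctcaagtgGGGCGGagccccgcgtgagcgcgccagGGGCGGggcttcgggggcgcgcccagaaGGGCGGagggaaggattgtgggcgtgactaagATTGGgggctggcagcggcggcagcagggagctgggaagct
Efnb1 promoter, chrX:99135811-99136110, plus strand: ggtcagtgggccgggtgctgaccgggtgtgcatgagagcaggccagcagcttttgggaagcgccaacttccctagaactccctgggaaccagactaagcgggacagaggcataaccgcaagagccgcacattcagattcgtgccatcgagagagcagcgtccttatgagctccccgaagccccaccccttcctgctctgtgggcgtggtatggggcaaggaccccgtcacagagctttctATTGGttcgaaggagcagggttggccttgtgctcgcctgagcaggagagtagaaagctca
Epha4 promoter, chr1:77515039-77515338, minus strand: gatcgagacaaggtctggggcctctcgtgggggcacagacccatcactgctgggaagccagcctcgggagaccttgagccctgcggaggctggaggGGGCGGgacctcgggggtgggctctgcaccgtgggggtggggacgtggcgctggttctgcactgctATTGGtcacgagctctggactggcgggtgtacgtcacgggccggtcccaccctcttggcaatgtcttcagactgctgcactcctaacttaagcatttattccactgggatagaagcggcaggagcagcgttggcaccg
Ephb6 promoter, chr6:41605261-41605560, plus strand: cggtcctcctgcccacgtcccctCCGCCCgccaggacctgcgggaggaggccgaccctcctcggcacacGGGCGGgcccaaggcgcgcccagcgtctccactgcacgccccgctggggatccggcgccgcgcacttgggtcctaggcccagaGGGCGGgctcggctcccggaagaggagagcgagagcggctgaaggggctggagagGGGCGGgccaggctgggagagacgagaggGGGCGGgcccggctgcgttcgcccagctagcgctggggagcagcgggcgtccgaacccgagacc

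The Ephb6 promoter held 5 GC boxes, the Efna3 promoter 3 GC boxes and 1 CCAAT box, the Epha4 promoter 1 of each, and the Efnb1 promoter 1 CCAAT box. None of the 4 held the TATA box letters. RefSeq promoters were matched for 58 member genes, with 74 starts between them. A GC box (letters GGGCGG) was present in 70.3% of those 74 windows and in 35.7% of the 32851 windows of the table. A TATA box (letters TATAAA) was present in 2.7% of member windows and 13.6% of all windows. A CCAAT box, named for its letters, was present in 28.4% of member windows and 37.4% of all windows. An E-box (letters CACGTG) was present in 6.8% of member windows and 7.2% of all windows. An AP-1 site (letters TGANTCA) was present in 4.1% of member windows and 7.8% of all windows. Member windows were richer in G and C (median 64.15% against 52.67%) and in CpG (median 19.5 per window against 7), and a GC box is made of these letters. A match describes the letters in the window and is not a measured binding site.

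Between PD2 and PD14, 8 of the 55 members tested rose and none fell. They were the secreted semaphorins Sema3b and Sema3f, the neuropilin Nrp1, the ephrins Efna3 and Efnb1, the receptors Epha4 and Ephb6, and the Slit receptor Robo2. The increases ran from 1.55-fold for Efnb1 to 4.31-fold for Efna3, on the log2(TPM + 1) scale with library method as a term (limma, adjusted p between 0.0166 and 0.0466). A share of 14.5% of tested members was called higher, against 6.41% of all 13332 genes tested, and 0% was called lower, against 4.77%. At an unadjusted p below 0.05, 16 members were higher and 4 were lower, against 2388 and 1878 of all 13332 genes tested. In bulk RNA, fewer cells of a type and less RNA per cell cannot be told apart. Leaving out either PD8 library or either PD14 library ended all 8 calls, as did a fit without the library method, in which 0 members passed. Which members passed also changed when either PD2 library was left out. A fit without 1 library leaves 1 library at a level. The share of all genes called in such fits is not given here, so these changes cannot be called particular to the members. Without the library method, 0 of all genes tested passed as higher too.

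**Figure D1:**
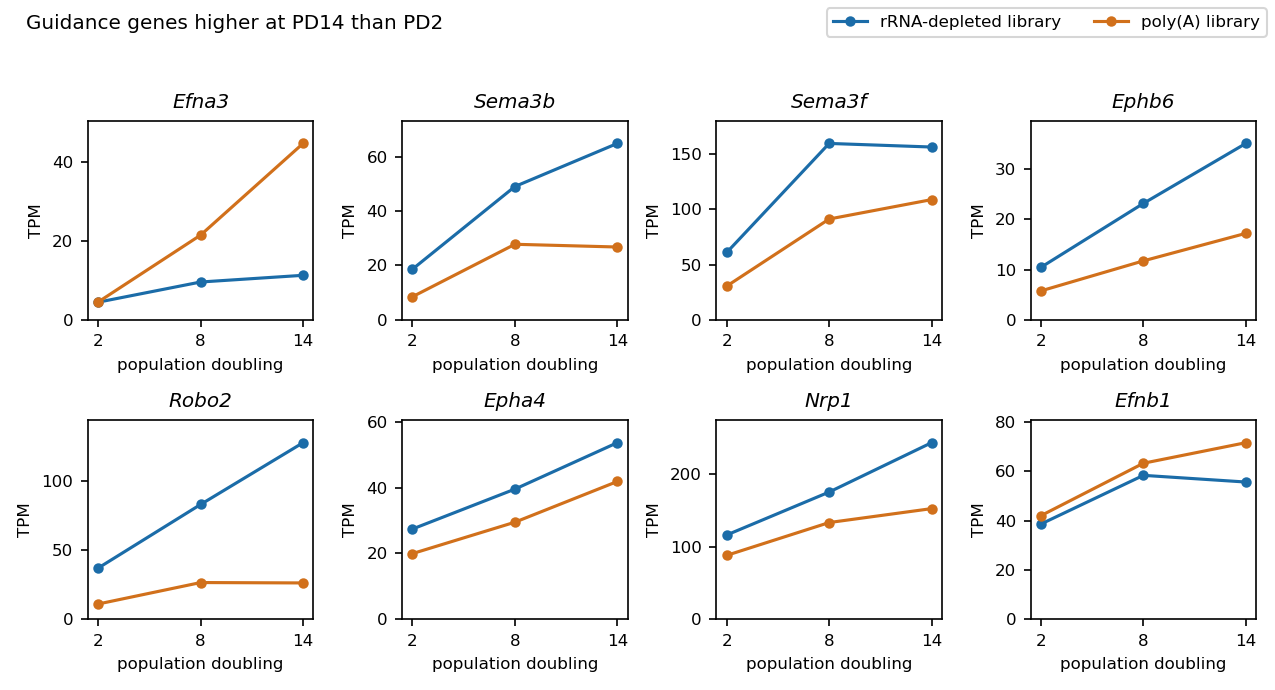
TPM (y axis, linear, starting at 0) at population doublings 2, 8 and 14 (x axis) for the 8 guidance genes that passed the test between PD14 and PD2; blue points are the rRNA-depleted libraries and orange points the poly(A) libraries, 1 library per point. In each panel and each method the PD14 point lies above the PD2 point. The poly(A) series lies below the rRNA-depleted one throughout for Sema3b, Sema3f, Nrp1, Epha4, Ephb6 and Robo2, and above it for Efna3 and Efnb1.

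The other 12 members did not reach 1 TPM in 2 libraries and were not tested: Epha6, Epha8, Epha10, Ephb1, Ntn5, Plxnb3, Robo4, Sema3g, Sema4a, Sema5b, Slit1 and Unc5d. Of these, 10 stayed under 1 TPM in every library, and the highest single value was 1.72 TPM for Slit1 in the poly(A) library at PD14. Each member had a value above 0 in at least 1 library. At the other end, 8 members averaged over 100 TPM across the 6 libraries: Slit3, Plxnb2, Nrp1, Slit2, Plxna1, Nrp2, Unc5b and Sema3f.

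All members together summed to 2229 TPM at PD2, 2390 TPM at PD8 and 2769 TPM at PD14 in rRNA-depleted libraries and to 1672, 2133 and 2318 TPM in the poly(A) libraries. The sum at PD14 was 1.24 times that at PD2 in the first method and 1.39 times in the second. Over the 55 members tested the median fitted log2 change was 0.30, against 0.06 over all genes tested. Without the poly(A) PD2 library the members' median was 0.054, against 0.036 over all genes, so the size of the fitted gap depends on that library. The members' median was 0.14 in the rRNA-depleted libraries alone, against 0.056 over all genes. In the poly(A) libraries alone it was 0.27, against 0.059. Both sums were highest at PD14.

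**Figure D2:**
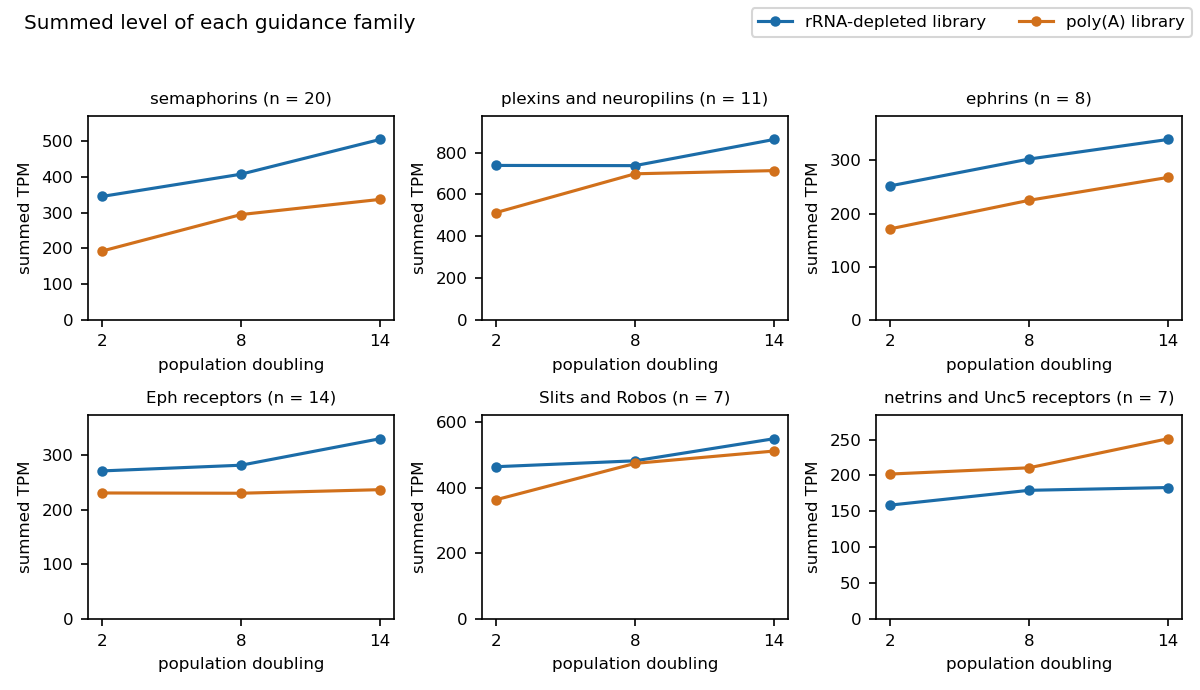
Summed TPM (y axis, linear, starting at 0) of each guidance family at population doublings 2, 8 and 14 (x axis), with the number of genes summed; blue is the rRNA-depleted and orange the poly(A) libraries, 1 library per point. Semaphorins, ephrins, Slits and Robos, and netrins and Unc5 receptors step up at both intervals in both methods. Eph receptors in poly(A) libraries stay between 230 and 237 TPM.

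Semaphorins: 2 of the 17 tested rose, and none fell. For this count and those of the families below, the shares over all genes tested were 6.41% higher and 4.77% lower. With so few genes in a family, the absence of calls in a direction says little. Sema3f, a secreted repellent that binds neuropilin-2, was the most abundant semaphorin. With levels given here and below in the order PD2, PD8, PD14, it measured 61.0, 160 and 157 TPM in rRNA-depleted libraries and 30.6, 91.4 and 109 TPM in poly(A) libraries. In each method, both later libraries were far above the PD2 library, and the PD14 and PD2 groups did not overlap. The fitted log2 change from PD2 to PD14 was 1.57 ± 0.15 (SE, 2 libraries per level), which is 2.98-fold (limma, adjusted p = 0.0166).

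Sema3b, a close relative that also signals through neuropilins, measured 18.6, 49.0 and 64.8 TPM in rRNA-depleted libraries and 8.49, 27.8 and 26.8 TPM in poly(A) libraries. The PD2 libraries were the lowest of each method and the levels of the PD2 and PD14 groups did not overlap. Its log2 change was 1.65 ± 0.17 (SE), 3.13-fold (limma, adjusted p = 0.0182).

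The other class 3 semaphorins tested had larger standard errors and did not pass. Sema3c, which guides neural crest and vascular cells, measured 62.4, 67.0 and 98.3 TPM in rRNA-depleted libraries and 20.1, 51.4 and 95.4 TPM in poly(A) libraries. Both PD14 libraries exceeded both PD2 libraries, but the log2 change of 1.42 ± 0.38 did not pass (limma, adjusted p = 0.0716). Sema3d had a log2 change of 0.71 ± 0.21 (adjusted p = 0.0882).

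Sema3a, the founding secreted repellent and a ligand of neuropilin-1, measured 72.8, 23.1 and 33.1 TPM in rRNA-depleted libraries and 30.0, 26.0 and 13.7 TPM in poly(A) libraries. The highest library was at PD2, yet the rRNA-depleted PD14 library lay above the poly(A) PD2 library, so the groups overlapped. Its log2 change was -1.10 ± 0.38 and did not pass (limma, adjusted p = 0.122). Sema3e, a ligand of plexin-D1, had opposite signs by method, 0.20 in rRNA-depleted and -2.06 in poly(A) libraries.

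Among membrane-bound semaphorins none passed the test. Sema5a, a transmembrane semaphorin with thrombospondin repeats, came nearest. It measured 27.9, 11.99 and 12.7 TPM in rRNA-depleted libraries and 18.4, 11.0 and 11.1 TPM in poly(A) libraries. Both PD2 libraries were above all 4 later libraries, and the log2 change was -0.87 ± 0.20 (limma, adjusted p = 0.0533). It passed as lower in the fits with the stricter low-value filter and with quantile normalization. The class 4 member of highest mean, Sema4c, had a log2 change of 0.08, with a 95% interval from -0.42 to 0.58. Sema4b, Sema4d, Sema4f and Sema4g averaged between 1.22 and 11.7 TPM and had fitted changes from -0.28 to 0.76. The class 6 semaphorins, which bind A-type plexins, were all positive in the fit, from 0.30 for Sema6a to 0.75 for Sema6b, and none of the 4 passed. Sema7a, which is held by a lipid anchor, had log2 changes of 0.02 in rRNA-depleted and -1.41 in poly(A) libraries.

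Plexins and neuropilins: 1 of 10 tested rose, and none fell. Nrp1, the co-receptor for Sema3a and for vascular endothelial growth factor, measured 116, 176 and 244 TPM in rRNA-depleted libraries and 88.1, 133 and 153 TPM in poly(A) libraries. It was higher at each successive level in both methods. Its log2 change was 0.92 ± 0.13 (SE), 1.90-fold (limma, adjusted p = 0.0244).

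Its relative Nrp2, the preferred receptor of Sema3f, measured 174, 67.3 and 100 TPM in rRNA-depleted libraries and 93.9, 122 and 112 TPM in poly(A) libraries. The methods differed in sign, and the fitted log2 change of -0.27 had a 95% interval from -1.28 to 0.74.

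Plxnb2, a receptor for class 4 semaphorins and the most abundant plexin, measured 218, 248 and 254 TPM in rRNA-depleted libraries and 159, 234 and 239 TPM in poly(A) libraries. Both PD14 libraries were above both PD2 libraries, and the log2 change of 0.40 ± 0.14 did not pass (limma, adjusted p = 0.128). Plxnd1, the receptor of Sema3e, had a log2 change of 0.58 ± 0.18 (adjusted p = 0.0999). Plxnc1, the receptor of Sema7a, had the most negative fitted change of the plexins, -1.10 ± 0.39 (adjusted p = 0.124). The A-type plexins, partners of the neuropilins, did not pass. Plxna1, the most abundant of them, measured between 108 and 141 TPM and had a log2 change of 0.30 ± 0.12 (adjusted p = 0.155). Plxna3 had opposite signs by method, 1.08 and -0.42, and so had Plxna4, -1.18 and 0.23. Plxna2 and Plxnb1 had fitted changes of 0.07 and -0.04.

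**Figure D3:**
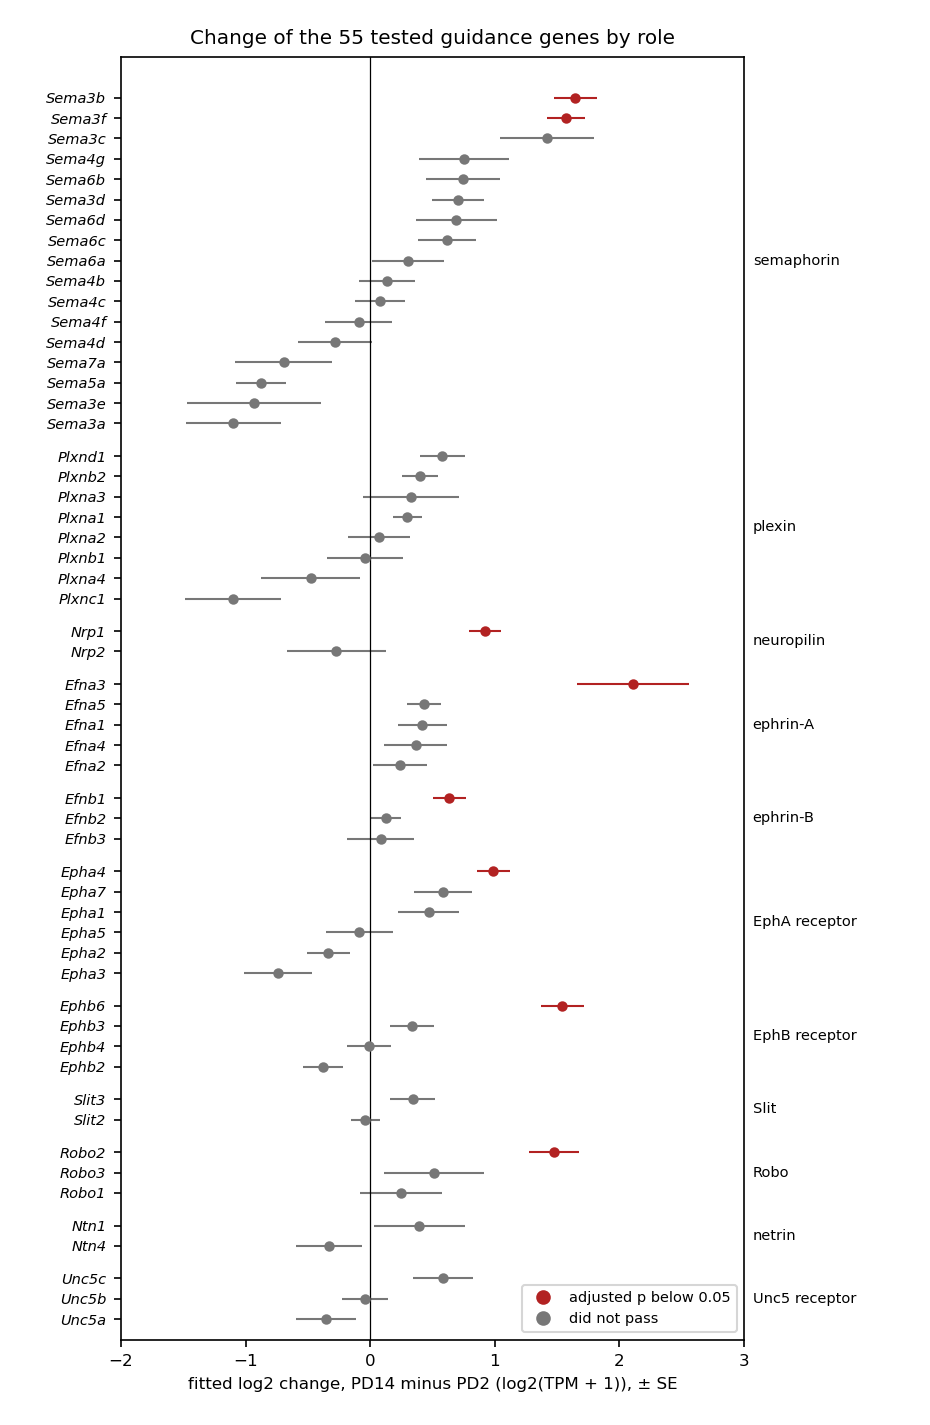
Fitted log2 change from PD2 to PD14 on the log2(TPM + 1) scale (x axis; points are estimates from all 6 libraries, bars are ± 1 SE) for the 55 tested guidance genes, grouped by role; red marks an adjusted p below 0.05 and grey the rest. The 8 red points all lie right of 0, and the 8 ephrin points all lie right of 0.

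Ephrins: 2 of 8 rose, and the fitted change was positive for all 8, with a median of 0.39. Of all 13332 genes tested, 7316 had a positive change. From PD2 to PD8, 5 of the ephrins were positive and 3 negative. With quantile normalization 7 of 8 were positive, Efnb3 turned negative, and none passed. Efna3 and Efnb1 also did not pass with no filter on low values or with no mean-variance trend in the fit. Efna3 had the largest change of any member. It measured 4.46, 9.57 and 11.3 TPM in rRNA-depleted libraries and 4.52, 21.4 and 44.6 TPM in poly(A) libraries. The PD2 libraries of the methods nearly coincided and the PD14 libraries did not. The log2 change was 2.11 ± 0.45 (SE), 4.31-fold (limma, adjusted p = 0.0466), made of 1.17 in rRNA-depleted and 3.05 in poly(A) libraries. Efna3 shares 344 exon bases with the antisense gene Gm15998, and the strandedness of the poly(A) libraries is not given in the sources used here, so its poly(A) level is uncertain. The same holds for Ephb4, Epha1, Efna4, Plxna1, Plxna4, Plxnb1, Sema4c, Unc5a and Unc5c, which also share exon bases with a gene on the opposite strand.

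Efnb1, a transmembrane ephrin that marks boundaries between cell groups, measured 38.6, 58.3 and 55.6 TPM in rRNA-depleted libraries and 42.0, 63.2 and 71.6 TPM in poly(A) libraries. Levels of the methods were close, and all 4 later libraries were above both PD2 libraries. The log2 change was 0.64 ± 0.13 (SE), 1.55-fold (limma, adjusted p = 0.0454). Efna5, the most abundant ephrin, measured 94.7, 127 and 143 TPM in rRNA-depleted libraries and 24.2, 30.0 and 29.5 TPM in poly(A) libraries, a log2 change of 0.43 ± 0.14 that did not pass (limma, adjusted p = 0.102).

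Efnb2, which marks arterial cells and pairs with Ephb4, measured between 57.6 and 74.4 TPM in all 6 libraries. Its log2 change was 0.13, with a 95% interval from -0.18 to 0.43. Efna1, Efna2 and Efna4 had fitted changes between 0.24 and 0.42 that did not pass. Efnb3 averaged 1.12 TPM with a change of 0.08.

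Eph receptors: 2 of 10 tested rose, and none fell. Epha4, a receptor that binds ephrins of both types, measured 27.5, 39.6 and 53.8 TPM in rRNA-depleted libraries and 20.0, 29.5 and 41.9 TPM in poly(A) libraries. Each step was upward in each method. The log2 change was 0.99 ± 0.13 (SE), 1.99-fold (limma, adjusted p = 0.0232).

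Ephb6, a receptor whose kinase domain lacks catalytic activity, measured 10.4, 23.1 and 35.1 TPM in rRNA-depleted libraries and 5.75, 11.7 and 17.2 TPM in poly(A) libraries. It rose by a log2 change of 1.54 ± 0.17 (SE), 2.91-fold (limma, adjusted p = 0.0199), with like changes of 1.66 and 1.43 in the methods.

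The catalytically active EphB receptors that were tested did not pass. Ephb4, the most abundant Eph receptor, measured 55.4, 42.5 and 60.9 TPM in rRNA-depleted libraries and 54.7, 51.2 and 49.2 TPM in poly(A) libraries, with a 95% interval of the log2 change from -0.45 to 0.43. The log2 change was -0.38 ± 0.16 for Ephb2 and 0.34 ± 0.17 for Ephb3 (adjusted p = 0.178 and 0.246). Epha2 and Epha3 had fitted changes of -0.33 and -0.74, neither of which passed. The values for Epha1, Epha5 and Epha7 were 0.47, -0.09 and 0.59, and none passed. Of the 10 receptors, 5 were positive and 5 negative.

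Slits and Robos: 1 of 5 tested rose. Robo2 measured 36.9, 82.8 and 127 TPM in rRNA-depleted libraries and 10.9, 26.4 and 26.1 TPM in poly(A) libraries. Its poly(A) PD14 library lay below its rRNA-depleted PD2 library, so the groups overlap, and within each method PD14 was above PD2. The log2 change was 1.47 ± 0.20 (SE), 2.78-fold (limma, adjusted p = 0.0231). Robo1, the related receptor, measured 63.5, 43.8 and 59.4 TPM in rRNA-depleted libraries and 19.4, 35.9 and 29.7 TPM in poly(A) libraries, with opposite signs by method. Robo3 averaged 0.719 TPM.

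Slit3 and Slit2 were the most abundant secreted members, while Slit1 was below the filter. Slit3 measured 201, 172 and 210 TPM in rRNA-depleted libraries and 221, 286 and 340 TPM in poly(A) libraries, a log2 change of 0.34 ± 0.18 that did not pass (limma, adjusted p = 0.261). Slit2 measured 162, 182 and 152 TPM in rRNA-depleted libraries and 111, 123 and 112 TPM in poly(A) libraries. Its 95% interval of the log2 change, from -0.33 to 0.25, was the narrower of the pair.

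Netrins and Unc5 receptors: none of the 5 tested passed. Unc5b, a repulsive netrin receptor, was the most abundant, at 71.4, 71.4 and 55.1 TPM in rRNA-depleted libraries and 136, 151 and 166 TPM in poly(A) libraries. Ntn4, a basement membrane netrin and the most abundant of its class, measured 13.2, 9.39 and 7.78 TPM in rRNA-depleted libraries and 41.1, 25.4 and 42.0 TPM in poly(A) libraries. Ntn1, the classical netrin, had a log2 change of -0.31 in rRNA-depleted and 1.10 in poly(A) libraries. Unc5c measured 55.7 to 107 TPM in rRNA-depleted libraries and 6.48 to 11.96 TPM in poly(A) libraries, and its change of 0.59 ± 0.24 did not pass (limma, adjusted p = 0.165). Unc5a averaged 2.41 TPM with a change of -0.36. The median fitted change of the 5 genes was -0.04.

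The fitted change of each called member was larger from PD2 to PD8 than from PD8 to PD14, although no member passed in either step alone with all 6 libraries. From PD2 to PD8 the log2 change was 1.46 for Sema3f, 1.47 for Sema3b and 1.17 for Robo2, and from PD8 to PD14 it was 0.11, 0.17 and 0.30. Epha4 was more even, with 0.53 and 0.46, as were Ephb6 with 0.995 and 0.55 and Nrp1 with 0.59 and 0.33. The steps were 1.49 and 0.62 for Efna3 and 0.58 and 0.05 for Efnb1.

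In limma, 0 members passed from PD2 to PD8, and the lowest adjusted p was 0.0701, for Sema3f. At an unadjusted p below 0.05, 12 members were higher and 1 lower in this step, against 1594 and 1119 of all 13332 genes. Without the rRNA-depleted PD2 library 4 members passed as higher in this step, Efna3, Sema3b, Sema3c and Sema3f, and without the poly(A) PD2 library 2 did, Sema3b and Sema3f. With all 6 libraries, 0.0225% of all genes tested were called higher and 0% lower in that step. These shares do not belong to the fits without a PD2 library. Those fits leave 1 library at PD2, and their share of all genes called is not given here. From PD8 to PD14, 0 members passed, and 0% of all genes were called in either direction. At an unadjusted p below 0.05, 3 members were higher and 0 lower from PD8 to PD14, against 386 and 360 of all 13332 genes. The late step minus the early step was tested itself: 0 members and 0% of all genes passed. The members at an unadjusted p below 0.05 were Sema3b, Sema3f and Sema5a, against 566 of all 13332 genes. The test over all 3 levels called Sema3b, Sema3f and Ephb6 (F test in limma, adjusted p = 0.0415, 0.0415 and 0.0490), against 1.46% of all genes. The F test gave an unadjusted p below 0.05 for 12 of 55 members and for 3223 of all 13332 genes. By that measure the members' share was not larger than that of all genes. The F test called 0 members with no filter on low values or with no mean-variance trend.

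In 17 of 55 members (30.9%) both PD14 libraries were above both PD2 libraries, against 22.4% of all genes, and in 5 (9.09%) both were below, against 15.8%. Of the called members, 7 were among the 17, and Robo2 was not. Levels were higher at each step in both methods in 10 members (18.2%, against 15.0% of all genes), among them Nrp1, Epha4, Ephb6 and Efna3. They were lower at each step in both methods in 1 member, Epha3 (1.82%, against 13.0%). Shares of the members are descriptions, since members of a family are not independent replicates.

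**Figure D4:**
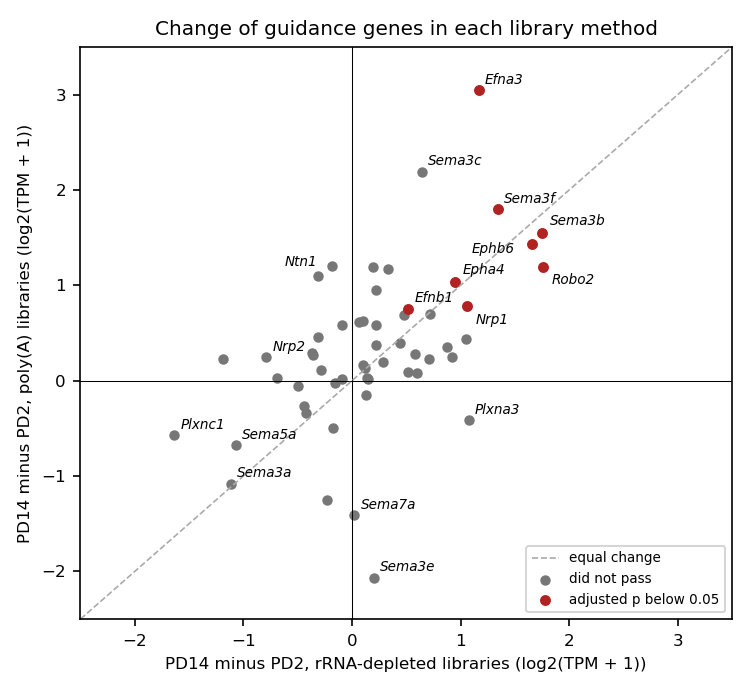
Log2 change from PD2 to PD14 on the log2(TPM + 1) scale in the rRNA-depleted libraries (x axis) and in the poly(A) libraries (y axis), 1 point per tested guidance gene, with the dashed line marking equal change; red marks an adjusted p below 0.05. All 8 red points lie above and to the right of 0, and Sema3e and Nrp2 lie where the methods differ in sign.

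The methods gave the same sign of change in 31 members upward and 9 downward, and opposite signs in 15 of the 55. Over all 13332 genes tested these counts were 5172, 4109 and 4018, so the share with opposite signs was near that of all genes. The level of a member also depended on the method. Averaged over PD levels, the rRNA-depleted minus poly(A) difference on the log2 scale was 3.10 for Unc5c, 2.07 for Efna5 and 1.84 for Robo2, and it was -1.73 for Ntn4, -1.31 for Epha1 and -1.19 for Unc5b. The median was 0.29 for members and 0.04 for all genes. Members spanned a median of 56.6 kb against 24.3 kb for all genes, and the rank correlation of span with this difference was 0.31 across 55 members and 0.37 across 13046 genes, which share the same 6 libraries.

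On mm10 (GENCODE M21), Sema3b (chr9:107597674-107609229) and Sema3f (chr9:107681500-107710475) lie on the minus strand 72.3 kb apart. The gene between them that could be tested, Gnai2, which encodes a G protein subunit, had a log2 change of -0.02 at a mean of 399 TPM, and Slc38a3 and Gnat1 were too low to test. A window of 100 kb on either side held 13 tested genes. It was placed around the called pair, so their own calls say nothing about the region. Apart from the pair only Hyal1, a hyaluronidase, rose (1.39 ± 0.30, limma, adjusted p = 0.0485), and none fell. Of all genes tested, 6.41% were called higher and 4.77% lower.

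Efna3 (chr3:89313899-89322965, minus strand) lies between Efna1 (chr3:89271733-89281142) and Efna4 (chr3:89333390-89338028), 32.8 kb from the first and 10.4 kb from the second. Neither neighbour passed: the log2 change was 0.42 for Efna1 and 0.37 for Efna4 (limma, adjusted p = 0.216 and 0.367). This window, with 22 tested genes, was likewise placed around a called member, Efna3. Apart from Efna3, Pbxip1 rose and Cks1b, a cell cycle kinase subunit, fell by 0.85 on the log2 scale. Of all genes tested, 6.41% were called higher and 4.77% lower. The remaining called members lie apart from each other: Epha4 at chr1:77367185-77515088, Ephb6 at chr6:41605482-41620509, Efnb1 at chrX:99136130-99148991, Nrp1 at chr8:128358604-128503363 and Robo2 at chr16:73891839-74411825.

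**Figure D5:**
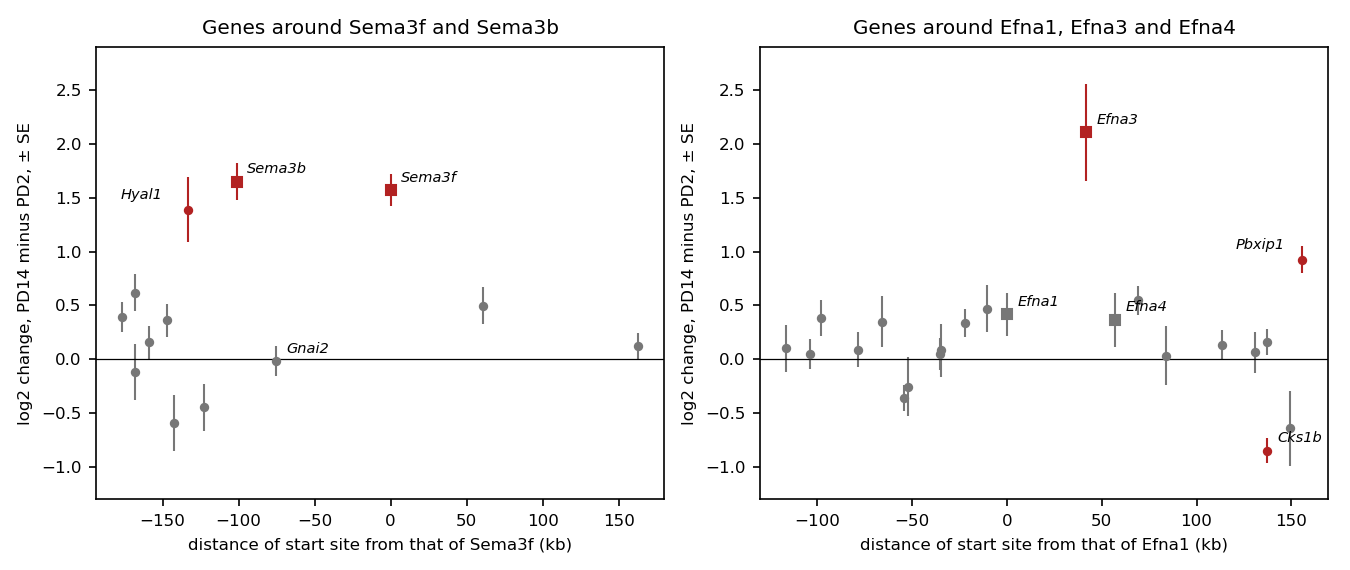
Log2 change from PD2 to PD14 (y axis; points are fitted values from 6 libraries, bars are ± 1 SE) against distance of each tested gene's start from that of Sema3f (left) or Efna1 (right), in kb; squares are guidance genes, circles other genes, and red marks an adjusted p below 0.05. Gnai2 sits at -0.02 between both raised semaphorins, and Efna3 stands at 2.11 above Efna1 and Efna4.

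Other genes of these pathways were read from a list of 69 co-receptors, proteases and cytoplasmic effectors, of which 63 were tested: 7 rose (11.1%, against 6.41% of all genes tested) and 4 fell (6.35%, against 4.77%). The share that fell was near that of all genes, and the median change was -0.05. Among cell surface partners, Chl1 and L1cam, adhesion molecules that associate with neuropilins, rose by 2.67 ± 0.29 and 1.495 ± 0.26 on the log2 scale. Cntn1, a related adhesion molecule, rose by 1.60 ± 0.28, and Plxdc2, a plexin-domain protein, by 1.10 ± 0.12. Draxin, a secreted netrin antagonist, rose by 1.47 ± 0.30 from 0.45 and 0.11 TPM at PD2.

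Of the effectors, Srgap3, a GTPase-activating protein that binds Robo, rose by 1.04 ± 0.15 and Rras, a small GTPase that plexins inactivate, by 0.63 ± 0.12. Dpysl3, a collapsin response mediator, had a log2 change of -1.28 ± 0.27, and Fyn, a kinase downstream of plexins and ephrins, of -0.88 ± 0.16. Rasa1, a Ras inhibitor that binds Eph receptors, had -0.87 ± 0.16, and Kdr, a vascular growth factor receptor that pairs with Nrp1, had -1.38 ± 0.24. These 11 had adjusted p between 0.0183 and 0.0471 (limma). The netrin receptor Dcc stayed under 1 TPM in each library, and its relative Neo1 averaged 88.2 TPM with a log2 change of 0.22 that did not pass.

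Markers of other cell types were summed in the same libraries. Counts of markers called at PD14 against PD2 stand beside 6.41% higher and 4.77% lower over all genes tested. The 18 neural and glial markers summed to 289, 201 and 237 TPM in rRNA-depleted libraries and 365, 290 and 252 TPM in poly(A) libraries, with 11 tested, 1 higher and 2 lower. The 14 endothelial markers summed to 78.5, 59.5 and 64.5 TPM and to 136, 92.1 and 93.6 TPM, with 8 tested, none higher and 2 lower. Both sums were lower at PD14 than at PD2. Single markers differed: the neural marker called higher was Map2, and those called lower were Nes and Gap43.

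Macrophage and leukocyte markers, 15 in number, summed to 168, 32.3 and 45.0 TPM in rRNA-depleted libraries and to 436, 752 and 714 TPM in poly(A) libraries, opposite directions by method, and none of the 13 tested passed. The 10 epithelial markers summed to 23.3 TPM at PD2 and 6.19 TPM at PD14 in rRNA-depleted libraries and to 42.9 and 2.75 TPM in poly(A) libraries, with 2 of 4 tested lower. The 12 fibroblast markers had 3 higher and none lower. The part of these cells in the members' levels was not tested.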

How the data were processed

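The authors deposited one table of TPM values per gene for 6 libraries, and these TPM values were used as deposited. Per the submitters' processing notes, bcl2fastq, cutadapt 1.14, HISAT2 2.0.5 and StringTie 1.3.1c were used with the mm10 build. Groups and library methods were taken from the labels. Genes with at least 1 TPM in at least 2 of 6 libraries (13332 of 21988) were fitted on log2(TPM + 1) with limma 3.58.1 in R 4.3.3, with an empirical Bayes mean-variance trend, 2 residual and 3.22 prior degrees of freedom, and library method as an additive term. That term is also the replicate number: the labels give replicate 1 as rRNA-depleted and replicate 2 as poly(A), and same-numbered libraries deviated together from the level means (correlations 0.75, 0.66 and 0.85). Tests were two-sided, with Benjamini-Hochberg adjustment over all genes tested and a threshold of 0.05. Fold changes on log2(TPM + 1) understate those of low genes. The fit was also run on simulated data with planted changes larger than that of any member. That run therefore says little about changes of the members' size. Values are printed for every member past the threshold and the most abundant member of each role; further members and pathway genes were named after their values were seen. Members and gene lists were chosen with earlier results of these data known. Positions come from GENCODE M21 and promoters from RefSeq. Alternatives were 13 other settings of the fit and other readings of the member rule.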

Additional observations from a re-analysis of the deposited data

How the results depend on the processing

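The count of members higher at PD14 than at PD2 was 8 in the fit described. It was 0 with no replicate block, that is without the term for library method, and between 0 and 9 when 1 library was left out, which leaves 1 residual degree of freedom. It was 8 with a pseudocount of 0.1, with the stricter filter and with rescaled sums, and 6 with no filter on low values, with quantile normalization and with no mean-variance trend; in those fits of 6 the same genes remained except Efna3 and Efnb1. Over 13 settings no called member changed sign, and Epha4, Ephb6, Nrp1, Robo2, Sema3b and Sema3f passed in 8. Efna3 passed in 4, with log2 changes from 1.37 to 2.85, and Efnb1 in 3, from 0.52 to 0.76. Reading the member rule to the letter, which takes in Unc50 (log2 change 0.73) and drops the Unc5 receptors, gave 9, and was chosen after seeing the data. The members lower at PD14 were 0, and 1 under the stricter filter, quantile normalization (Sema5a in both), without the rRNA-depleted PD2 library (Epha3) and without the poly(A) PD2 library (Plxnc1). The members called over all 3 levels were 3, and 0 with no filter, with no replicate block and with no trend, and between 0 and 5 when 1 library was left out. From PD2 to PD8 the count of members higher was 0, and between 0 and 4 when 1 library was left out. The median change of 0.30 ran from 0.054, without the poly(A) PD2 library, to 0.34 (log2). The number of genes higher at PD14 of all tested was 854, 0 with no replicate block and 229 with no filter. The cause of these differences was not tested. The depth of the libraries is unknown, so the counting error of low members such as Robo3 and Efnb3 cannot be given.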
